A study of Mus musculus with 6 samples.

Results

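The genes described are those that start blood coagulation, hold it in check and activate plasminogen: F3, Tfpi, Tfpi2, Thbd, Procr, Plau, Plat, Plaur and Serpine2. They were taken by name from the deposited expression tables, and all 9 were found among 15063 listed genes. The cells were mesenchymal stem cells grown from mouse bone marrow, as 3 libraries with a conditional knockout of Mapk7 (CKO) and 3 wild-type libraries (WT), from mice 3 weeks old. The study asked how Mapk7, which encodes the kinase ERK5, acts in the choice of these cells between bone and fat. RNA was taken at passage 5, except in WT library 2, which was at passage 7. WT libraries 1 and 2 carry the same animal label, and the labels do not say that the libraries of a genotype came from separate litters or culture days. P-values therefore measure only the spread between these libraries. The labels used here name neither the promoter that drives the recombinase nor the deleted exons.

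Tissue factor, encoded by F3, is a membrane protein that binds factor VII and so starts the clotting cascade. TFPI blocks the complex of tissue factor and factor VII, while thrombomodulin (Thbd) and the endothelial protein C receptor (Procr) turn thrombin towards the activation of protein C, an anticoagulant. Fibrin is cleared by plasmin, which urokinase (Plau) and tissue plasminogen activator (Plat) release from plasminogen. The urokinase receptor (Plaur) holds urokinase at the cell surface. Protease nexin-1 (Serpine2) is a serpin that inhibits these activators and also thrombin. Fibroblasts and other stromal cells are known sources of tissue factor and of the plasminogen activator system.

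Of the 9 genes, F3 and Serpine2 were those whose CKO and WT values did not overlap, F3 being higher and Serpine2 lower in CKO. Of all tested genes, 7.51% lay higher in all CKO than in all WT libraries and 9.18% lower. Neither F3 nor Serpine2 passed the test over all genes. To show the DNA at these 2 genes, the 250 bases before the RefSeq start of each (build GRCm38.p6) are printed 5′ to 3′ on the gene's strand, and Plaur is added as a gene with the same motif as F3. Capitals mark matches to TGANTCA, the motif of AP-1, a family of transcription factors to which tissue factor transcription is known to respond.
F3, chr3:121723287-121723536, plus strand: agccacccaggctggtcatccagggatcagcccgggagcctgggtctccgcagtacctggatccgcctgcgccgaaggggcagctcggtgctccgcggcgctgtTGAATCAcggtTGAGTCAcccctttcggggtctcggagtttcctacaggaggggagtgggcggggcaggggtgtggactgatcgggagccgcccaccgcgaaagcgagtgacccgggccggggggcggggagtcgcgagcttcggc
Serpine2, chr1:79858666-79858915, minus strand: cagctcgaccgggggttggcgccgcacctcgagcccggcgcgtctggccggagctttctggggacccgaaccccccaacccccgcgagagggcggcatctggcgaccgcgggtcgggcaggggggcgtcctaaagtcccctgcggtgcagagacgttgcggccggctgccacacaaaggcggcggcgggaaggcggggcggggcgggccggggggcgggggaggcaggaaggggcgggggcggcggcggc
Plaur, chr7:24462233-24462482, plus strand: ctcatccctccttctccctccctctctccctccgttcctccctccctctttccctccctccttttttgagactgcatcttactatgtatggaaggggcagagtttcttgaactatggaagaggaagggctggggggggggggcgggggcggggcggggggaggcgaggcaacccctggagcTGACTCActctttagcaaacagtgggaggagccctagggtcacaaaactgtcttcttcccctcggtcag

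The F3 window held 2 AP-1 matches, TGAATCA at 146 to 140 bases and TGAGTCA at 135 to 129 bases before the start. Plaur held 1 match (TGACTCA, 69 to 63 bases before the start), and the Serpine2 window held none. RefSeq windows were found for 6 of the 9 genes, F3, Serpine2, Plaur, Tfpi, Tfpi2 and Procr, as 9 windows in all because Tfpi has 2 starts and Tfpi2 has 3. An AP-1 match was present in the windows of F3, Plaur and Procr and in 1 of the 3 of Tfpi2, and in 6.75% of the 32851 windows of the same length in the RefSeq table. This motif reads the same on both strands, and none of its matches overlapped another motif searched. The other motifs were searched on both strands. CCACCC, a motif of Krüppel-like factors, occurred once in the F3 window and once in that of Procr, in 2 of the Tfpi2 windows, and in 28.1% of all windows. GGGCGG, the GC box, was found 3 times before F3, 3 times before Plaur, 6 times before Serpine2, once in each Tfpi window and 2 times in 1 Tfpi2 window, in part overlapping itself, and in 32.7% of all windows. The consensus of MEF2, the factors that the kinase encoded by Mapk7 activates, matched in no window of these genes and in 2.92% of all windows. These letter matches describe the windows only.

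Each library held 17351907 to 20689481 reads. Mapk7, the deleted gene, was at 5.59, 3.84 and 5.45 RPKM (reads scaled to gene length and library total) in CKO libraries 1 to 3, against 7.12, 6.76 and 9.07 RPKM in WT libraries 1 to 3. All CKO values lay below all WT values, but the transcript was still present in CKO. Its limma adjusted p was 0.505. Of 15 stromal markers, 14 were at 1 RPKM or more in every library, and Lepr was below 1 RPKM throughout. Their summed level was 7288, 4121 and 3532 RPKM in CKO libraries 1 to 3, against 6943, 7053 and 6405 RPKM in WT libraries 1 to 3. By genotype, 10 of the 14 stromal markers tested had a log2 difference below 0 and 4 above, beside 5135 below and 5950 above over all tested genes. The median of the 14 was −0.815, beside 0.034 over all tested genes. An unadjusted limma p under 0.05 was found for 6 of the 14, beside 9.74% of all tested genes, none passing with adjustment. Pdgfra, Pdgfrb, Ly6a and Cxcl12 were lower in all CKO than in all WT libraries, as were 9.18% of all tested genes. Cd44 was higher in all CKO libraries, as were 7.51%. Macrophage markers were also present, with 17 to 20 of 20 at 1 RPKM or more. Their summed level was 808, 465 and 3804 RPKM in CKO libraries 1 to 3 and 1175, 886 and 2498 RPKM in WT libraries 1 to 3. Lyz2 made up 2948 RPKM of the sum in CKO library 3. The mean log2(RPKM + 1) of these markers, used below as the macrophage marker covariate, was highest in WT library 3. It was 5.2 there and 5.14 in CKO library 3. WT library 2 stood apart by its 15 cell cycle genes, which summed to 52.1 RPKM there, against 224 to 496 RPKM in the CKO libraries and 473 and 301 RPKM in WT libraries 1 and 3. In such bulk samples, a smaller share of cells of one type and less RNA per cell cannot be told apart.

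Genes were tested by limma on log2(RPKM + 1), a scale on which the change of low genes is understated, with p-values adjusted by the Benjamini-Hochberg method over all 11085 tested genes. Testing was limited to genes at 1 RPKM or more in 3 or more libraries, which took in 8 of the 9, Tfpi2 being the exception. None of the 8 had an adjusted p under 0.05, and across all tested genes 1 gene did (0.00902%). Unadjusted, F3 and Serpine2 had p under 0.05, which is 2 of 8 beside 9.74% of all tested genes. Of the 8, F3 alone lay higher in all 3 CKO libraries than in any WT library, as did 7.51% of all tested genes, and Serpine2 alone lay lower throughout, as did 9.18%. The log2 difference was above 0 for 6 and below 0 for 2 of the 8, with a median of 0.89, while the median over all tested genes was 0.034.

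**Figure D1:**
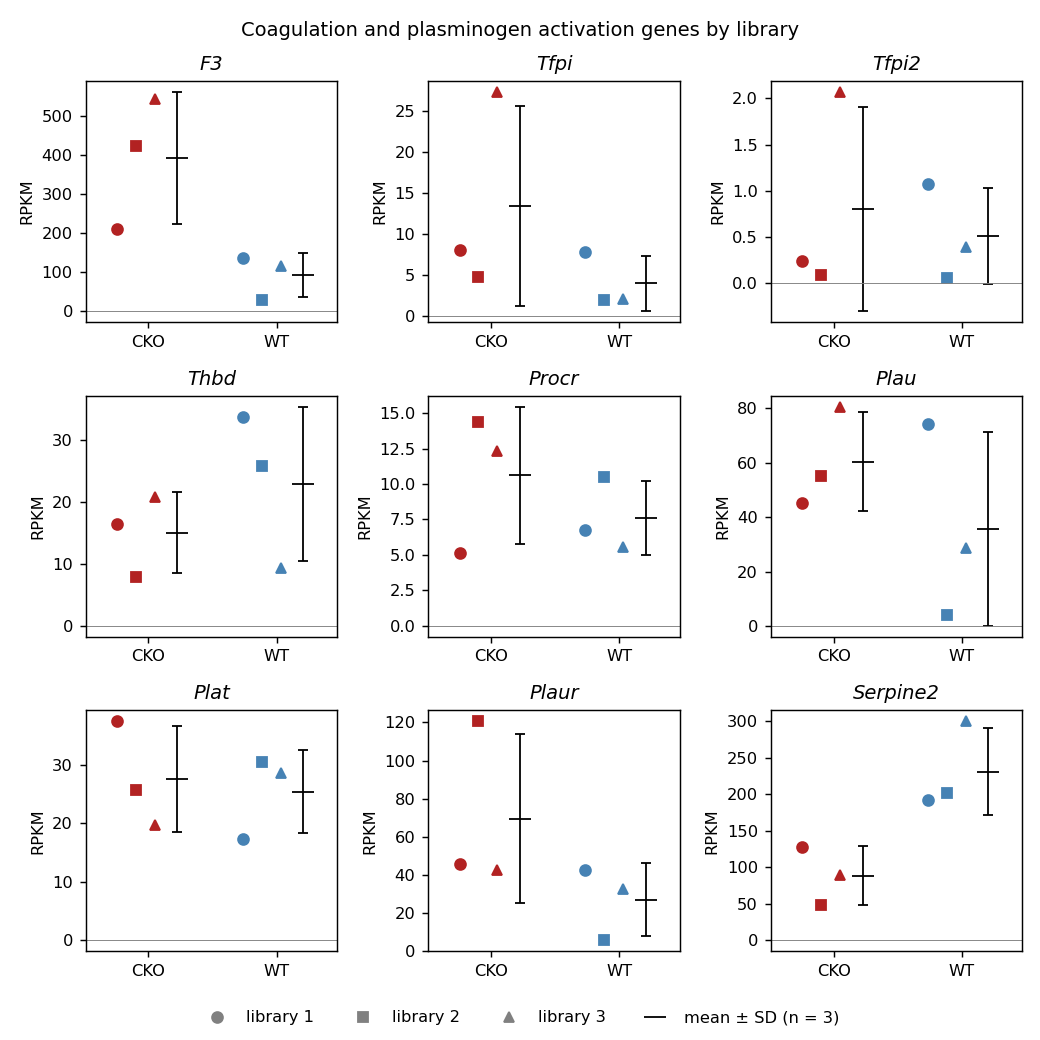
RPKM of the 9 genes (vertical axis, linear, each panel on its own scale) in the 3 CKO and 3 WT libraries, with symbols for library numbers and a bar for mean ± SD. F3 lies at 211 RPKM or more in CKO and at 135 RPKM or less in WT, Serpine2 lies at 128 RPKM or less in CKO and at 192 RPKM or more in WT, and the groups overlap in the other 7 panels.

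F3 transcripts were at 211, 422 and 543 RPKM in CKO libraries 1 to 3, against 135, 28.6 and 114 RPKM in WT libraries 1 to 3. The lowest CKO library was 1.56 times the highest WT library, and WT library 2, of passage 7, was the lowest of all 6. The means were 392 ± 168 RPKM in CKO and 92.7 ± 56.5 RPKM in WT (SD, n = 3 libraries each), a ratio of 4.23. Behind these values stood 7489 to 18094 reads per CKO library and 1112 to 4402 reads per WT library, so counting error was small beside the spread between libraries. On the log2 scale CKO minus WT was 2.24 (SE 0.64, 95% interval 0.72 to 3.75), with a limma adjusted p of 0.33. With WT libraries 1 and 2, which share an animal label, merged, it was 1.90 (limma adjusted p = 0.208). Without WT library 2 the log2 difference was 1.54 (limma adjusted p = 0.689). Within CKO, F3 was highest in library 3, where the macrophage markers were also highest (3804 RPKM), and was at 422 RPKM in library 2, where they were lowest (465 RPKM). With the macrophage marker covariate the log2 difference was 2.35 (limma adjusted p = 0.329). The part of the stromal marker differences in the F3 value was not tested.

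The F3 transcript was abundant in these cultures. In each CKO library F3 had the highest RPKM of the 9 genes and stood above 98.4 to 99.2% of all listed genes. In WT library 1 it stood above 97.3% of listed genes, in WT library 3 above 96.5% and in WT library 2 above 86.2%. Over the 6 libraries, the tested genes whose log2(RPKM + 1) followed F3 most closely were Mif, which encodes a cytokine (Pearson r = 0.994), Hsd17b12, an enzyme of fatty acid elongation (r = 0.993), and Plekho1 (r = 0.993). These were the 3 highest of all genes tested, so their r is given as a description. Mif was at 475, 606 and 658 RPKM in CKO libraries 1 to 3, against 440, 229 and 366 RPKM in WT libraries 1 to 3, and so showed a narrower range than F3 with the same order of libraries.

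The inhibitors of the tissue factor complex were expressed far below F3. Tfpi was at 8.05, 4.78 and 27.3 RPKM in CKO libraries 1 to 3, against 7.85, 1.95 and 2.07 RPKM in WT libraries 1 to 3. CKO library 3 was far above the other 5, and the groups overlapped because WT library 1 exceeded CKO library 2. The means were 13.4 ± 12.2 RPKM in CKO and 3.96 ± 3.37 RPKM in WT, with a log2 difference of 1.40 (SE 0.67, 95% interval −0.19 to 2.99, limma adjusted p = 0.56). Without CKO library 3 the difference was 0.745. That library also had the highest sum of macrophage markers, though not the highest mean log2 level of them. Its sum of the 5 listed platelet and megakaryocyte markers was also the highest (232 RPKM, against 28.7 and 17.1 RPKM in CKO libraries 1 and 2 and 61.9, 3.08 and 19.2 RPKM in WT libraries 1 to 3). Of the 232 RPKM, Pf4 made up 210 RPKM and Ppbp 19.5 RPKM. The other listed markers, Itga2b, Gp1bb and Gp5, were not highest in CKO library 3. With the macrophage marker covariate the log2 difference of Tfpi was 1.52 (limma adjusted p = 0.497). The part of platelets and megakaryocytes in the Tfpi value was not tested. Within a library, the ratio of F3 to Tfpi RPKM was 26.2, 88.3 and 19.9 in CKO and 17.2, 14.7 and 55.1 in WT, and these ranges overlapped.

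Tfpi2, which encodes a related Kunitz-type protease inhibitor, was close to the limit of detection. It was at 0.239, 0.0877 and 2.07 RPKM in CKO libraries 1 to 3, against 1.08, 0.0546 and 0.391 RPKM in WT libraries 1 to 3. These values rest on 8, 3 and 65 reads in CKO and 33, 2 and 12 reads in WT. The gene was under the filter and was not tested, and the order of the low libraries was not resolved at this depth.

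The protein C pathway genes overlapped between genotypes. Thbd was at 16.4, 7.87 and 20.7 RPKM in CKO libraries 1 to 3, against 33.7, 25.8 and 9.35 RPKM in WT libraries 1 to 3. WT libraries 1 and 2 were the highest 2 of the 6, but WT library 3 lay below 2 of the CKO libraries. The log2 difference was −0.51 (SE 0.52, 95% interval −1.74 to 0.72, limma adjusted p = 0.754), and leaving out CKO library 2 gave −0.13, CKO library 3 gave −0.78, WT library 1 gave −0.16 and WT library 3 gave −1.03. In endothelial cells, Thbd is a known target of the transcription factor KLF2. Klf2 was at 1.31, 2.70 and 3.10 RPKM in CKO and 62.3, 23.5 and 59.2 RPKM in WT (limma adjusted p = 0.0765). The groups of Klf2 did not overlap, and the part of Klf2 in the Thbd value was not tested.

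Procr was at 5.15, 14.4 and 12.3 RPKM in CKO libraries 1 to 3, against 6.73, 10.5 and 5.53 RPKM in WT libraries 1 to 3. The highest 2 values and the lowest value were all in CKO. The estimated log2 difference was 0.37 (SE 0.39, 95% interval −0.55 to 1.29, limma adjusted p = 0.761). Leaving out CKO library 1 gave 0.78, CKO library 2 gave 0.12 and CKO library 3 gave 0.22. Leaving out WT library 2 gave 0.60, and WT library 3 gave 0.20. Thbd, Procr and Tfpi are best known from endothelium, whose listed markers were mostly below 1 RPKM here. Pecam1, Cdh5 and Kdr were below 1 RPKM in every library, and Cdh5 was at 0 in CKO library 2 and WT library 2. Of the 9 endothelial markers listed (of 12 sought), 1 reached 1 RPKM in each CKO library and 2 in each WT library. The 9 summed to 4.58, 3.29 and 6.75 RPKM in CKO and 8.55, 7.32 and 3.77 RPKM in WT.

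Among the plasminogen activators, Plau varied widely within WT. It was at 45.3, 55.1 and 80.6 RPKM in CKO libraries 1 to 3, against 74.0, 4.03 and 28.7 RPKM in WT libraries 1 to 3. All 3 CKO values lay above those of WT libraries 2 and 3, but WT library 1 lay within the CKO range. The log2 difference was 1.41 (SE 0.90, 95% interval −0.72 to 3.55, limma adjusted p = 0.634), and it was 0.34 without WT library 2, 0.79 with WT libraries 1 and 2 merged and 2.29 without WT library 1. The size of the difference therefore depended on which of these WT libraries was in the fit.

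Plat was the steadiest of the activator genes. It was at 37.5, 25.6 and 19.7 RPKM in CKO libraries 1 to 3, against 17.2, 30.5 and 28.6 RPKM in WT libraries 1 to 3, a range of 2.17 times over all 6. The highest library was in CKO and the lowest in WT, with the others interleaved. Between genotypes the log2 difference was 0.11 (SE 0.32, 95% interval −0.64 to 0.85, limma adjusted p = 0.925), and its sign turned without CKO library 1 (−0.13) or WT library 1 (−0.14). Leaving out CKO library 3 gave 0.32, WT library 2 gave 0.25 and WT library 3 gave 0.21. The activator with the higher RPKM was Plau in all 3 CKO libraries and in WT libraries 1 and 3, and Plat in WT library 2, where the ratio of Plau to Plat was 0.132, against 1.21 to 4.09 in CKO. In WT library 3 the ratio was 1.01.

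Plaur, the urokinase receptor gene, was at 45.4, 121 and 42.5 RPKM in CKO libraries 1 to 3, against 42.7, 5.58 and 32.8 RPKM in WT libraries 1 to 3. CKO library 2 was the highest and WT library 2 the lowest, and CKO library 3 and WT library 1 were nearly equal, which is where the groups touched. The log2 difference was 1.55 (SE 0.76, 95% interval −0.25 to 3.36, limma adjusted p = 0.568). Leaving out WT library 2 gave 0.71, and leaving out CKO library 2 gave 1.08. Plau and Plaur are also expressed by macrophages. Plaur was highest in CKO library 2, which had the lowest macrophage marker sum (465 RPKM), and Plau was highest in CKO library 3, which had the highest (3804 RPKM). With the macrophage marker covariate the log2 difference was 1.55 for Plau (limma adjusted p = 0.59) and 1.58 for Plaur (limma adjusted p = 0.573).

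Serpine2 was at 128, 48.4 and 89.8 RPKM in CKO libraries 1 to 3, against 192, 202 and 300 RPKM in WT libraries 1 to 3. The lowest WT library was 1.49 times the highest CKO library, and within WT the values spread less (1.56 times from lowest to highest) than within CKO (2.65 times). The means were 88.9 ± 40.02 RPKM in CKO and 231 ± 59.9 RPKM in WT. On the log2 scale CKO minus WT was −1.45 (SE 0.40, 95% interval −2.39 to −0.50), with a limma adjusted p of 0.32. In contrast to Plau and Plaur, WT library 2 was not apart from the other WT libraries in Serpine2, and the difference was −1.53 without it (limma adjusted p = 0.719). The difference was −1.07 without CKO library 2 and −1.77 without CKO library 1. With WT libraries 1 and 2 merged it was −1.55 (limma adjusted p = 0.283). The macrophage marker covariate gave −1.38 (limma adjusted p = 0.34), and the part of the stromal marker differences in the Serpine2 value was not tested.

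The order of F3 and Serpine2, the most abundant 2 of the 9 genes by mean, differed between genotypes in every library. The ratio of F3 to Serpine2 RPKM was 1.64, 8.71 and 6.05 in CKO libraries 1 to 3, against 0.705, 0.142 and 0.38 in WT libraries 1 to 3. This ratio was chosen after its values were seen, and it follows from the separate differences of its 2 genes, so no test is given for it.

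**Figure D2:**
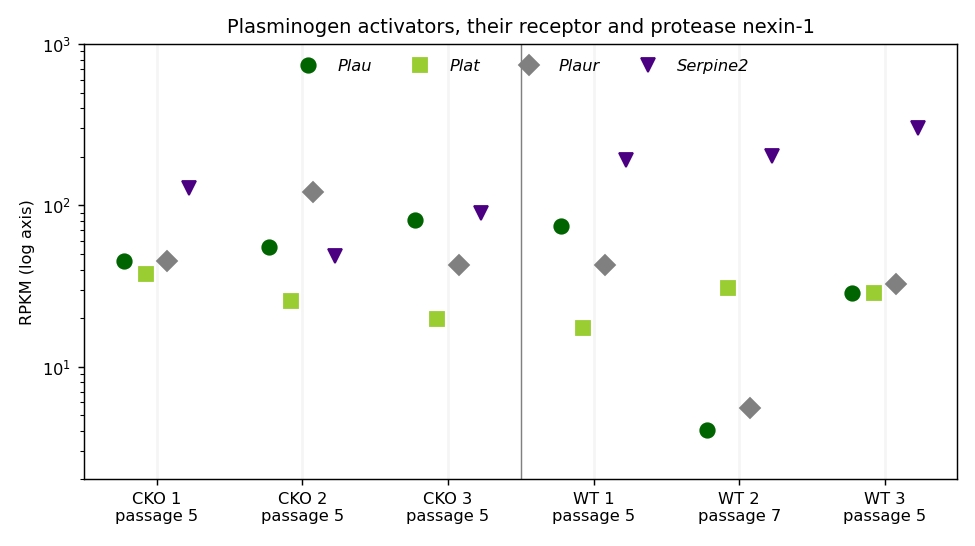
RPKM on a log axis of the activator genes Plau and Plat, the receptor gene Plaur and the inhibitor gene Serpine2 in each of the 6 libraries, with the passage of each. In WT library 2 Plau stands at 4.03 RPKM and Plaur at 5.58 RPKM, the lowest of the 6 libraries, while Serpine2 stands there at 202 RPKM.

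**Figure D3:**
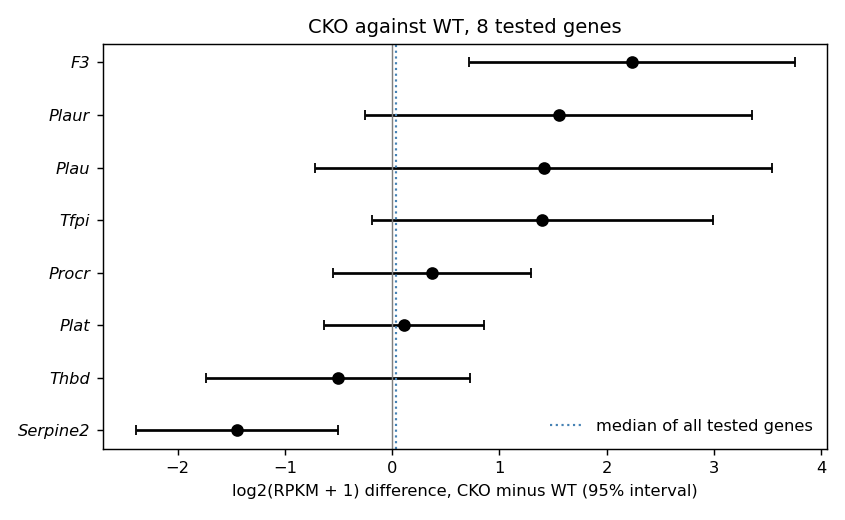
Log2(RPKM + 1) difference between CKO and WT with its 95% limma interval (horizontal axis) for the 8 tested genes, and the median of all tested genes as a dotted line. The intervals of F3 (0.72 to 3.75) and Serpine2 (−2.39 to −0.50) lie apart from 0 before adjustment for the number of genes tested, and the other 6 contain 0.

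Of the wider coagulation and fibrinolysis genes, 49 were sought in 4 lists, 33 were listed in the files and 18 were tested. None had an adjusted p under 0.05 with limma, also with limma-voom on the reads recovered from the values, and 2 of the 18 had an unadjusted p under 0.05, beside 9.74% of all tested genes. The log2 difference was above 0 for 4 and below 0 for 14 of the 18, while it was above 0 for 5950 and below 0 for 5135 of all tested genes. The median was −0.42, beside 0.034 over all tested genes, and it was −0.097 without the filter on low values. Genes with the lowest p in each list are described next.

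Mrc2, a collagen receptor gene whose product associates with the urokinase receptor, was at 47.2, 40.8 and 57.1 RPKM in CKO libraries 1 to 3, against 59.0, 79.8 and 63.1 RPKM in WT libraries 1 to 3 (log2 difference −0.47, SE 0.24, limma adjusted p = 0.583). Lrp1, which encodes an endocytic receptor that clears complexes of activators and serpins, was at 127, 48.3 and 103 RPKM in CKO, against 175, 205 and 85.4 RPKM in WT (limma adjusted p = 0.627). The groups of Mrc2 did not overlap and those of Lrp1 did. Anxa2 and S100a10, which form a plasminogen receptor, overlapped between genotypes. Anxa2 was at 458 to 979 RPKM in CKO and 478 to 864 RPKM in WT, and S100a10 at 96.8 to 369 RPKM in CKO and 160.5 to 313 RPKM in WT. These ranges were looked at after the values were seen.

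Among the anticoagulant genes, Serping1, which encodes the C1 inhibitor of complement and contact proteases, was at 6.87, 1.10 and 46.5 RPKM in CKO libraries 1 to 3, against 48.1, 200.2 and 113 RPKM in WT libraries 1 to 3. The groups did not overlap, although CKO library 3 came close to WT library 1. The log2 difference was −3.50 (SE 1.10, limma adjusted p = 0.369). Pros1, the gene for protein S, a cofactor of activated protein C, was at 29.2, 9.77 and 29.2 RPKM in CKO, against 30.5, 53.3 and 42.6 RPKM in WT (log2 difference −0.97, SE 0.44, limma adjusted p = 0.537), with CKO libraries 1 and 3 just below WT library 1. Entpd1, an ectonucleotidase gene, overlapped (limma adjusted p = 0.836).

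Of 20 genes sought for clotting factors and their maturation, 12 were listed and 6 tested. Kng1, a kininogen gene, was at 0.151, 0 and 0.806 RPKM in CKO libraries 1 to 3, against 1.98, 1.76 and 1.81 RPKM in WT libraries 1 to 3 (log2 difference −1.16, SE 0.27, limma adjusted p = 0.277). The groups were apart at these low levels. Kng2, its near copy, was at 1.14, 0.159 and 1.78 RPKM in CKO, against 3.53, 1.21 and 2.75 RPKM in WT (limma adjusted p = 0.569), and reads of the pair may have been split in the counting. Vkorc1, the vitamin K reductase subunit gene needed to mature clotting factors, was at 86.9, 103 and 53.6 RPKM in CKO and 90.0, 361 and 159.9 RPKM in WT (limma adjusted p = 0.542). F7 and F10, the partners of tissue factor, were at 0 in CKO libraries 1 and 2 and in WT library 3, and reached 2.61 and 3.05 RPKM in CKO library 3. In that library F13a1, a transglutaminase gene also expressed by macrophages, was at 35.3 RPKM, against 2.16 RPKM or less in the other 5. F7, F10 and F13a1 were under the filter, were not tested, and were chosen after their values were seen.

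Of the receptors through which thrombin and related proteases signal to cells, F2r (PAR1) was the one tested. It was at 55.7, 49.6 and 83.1 RPKM in CKO libraries 1 to 3, against 53.5, 50.1 and 86.4 RPKM in WT libraries 1 to 3. Between genotypes the log2 difference was −0.0042 (SE 0.31, 95% interval −0.74 to 0.73, limma adjusted p = 0.998), an interval that leaves room for differences of either sign. F2rl1, F2rl2 and F2rl3 were under the filter.

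WT libraries 1 and 2 share an animal label and differ in passage, so their values can be set side by side, with 1 library at each passage and no replicate check. Plau was at 4.03 RPKM at passage 7 and 74.0 RPKM at passage 5, and was thus 18.4 times lower at passage 7. Plaur was 7.64, F3 4.72 and Tfpi 4.02 times lower at passage 7. Serpine2 was at 202 RPKM at passage 7 and 192 RPKM at passage 5, and Plat at 30.5 RPKM at passage 7 and 17.2 RPKM at passage 5. Thbd was at 25.8 RPKM at passage 7 and 33.7 RPKM at passage 5, and Procr at 10.5 RPKM at passage 7 and 6.73 RPKM at passage 5. Plau, Plaur, F3 and Tfpi were therefore lower at passage 7 in this pair of libraries while Serpine2, Plat, Thbd and Procr lay within 1.77 times. Tfpi2, near the limit of detection, was also lower, at 0.0546 RPKM (2 reads) at passage 7 and 1.08 RPKM (33 reads) at passage 5. Passage, culture and cell cycle gene level cannot be told apart in this pair.

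**Figure D4:**
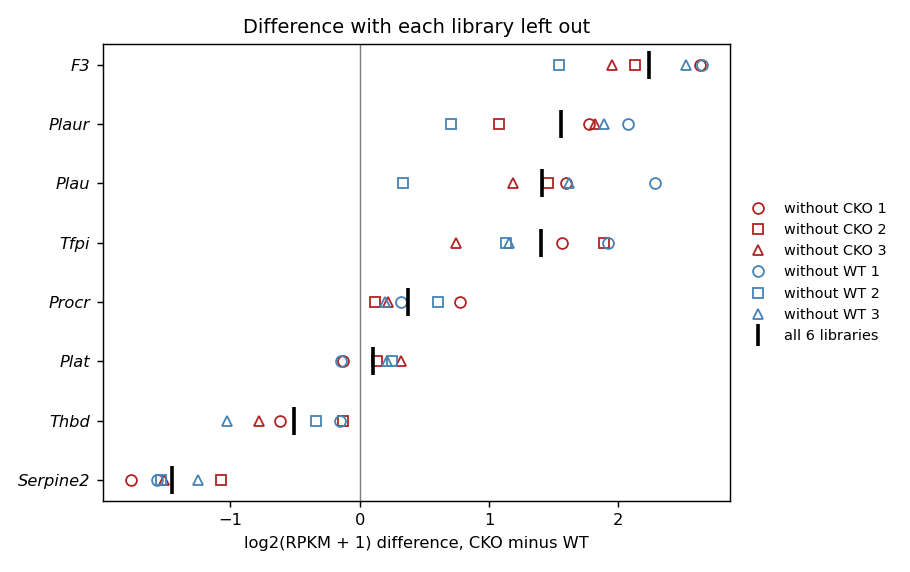
Log2(RPKM + 1) difference between CKO and WT (horizontal axis) of the 8 tested genes with all 6 libraries (black bar) and with each library left out (open symbols, CKO red, WT blue). F3 stays between 1.54 and 2.64 and Serpine2 between −1.77 and −1.07, Plau moves to 0.34 without WT library 2, and Plat lies on both sides of 0.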

How the data were processed

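The authors deposited a table of expression values for each library, whose headers name no unit. The deposited values were taken as RPKM because they go back to reads. With a whole-number total per library and length per gene, whole reads come out in all 6 libraries for 15062 of 15063 genes (99.99%). This holds within 0.01 read or a relative error of 1e-07. Of 500 genes with shuffled values, 0 gave whole reads, but their lengths were searched over a shorter range. The smallest length that fits was used, so a gene's reads could be a whole fraction of the true number. Per the submitters' processing notes the build was mm9. Neither the aligner nor the counting tool, annotation or use of strand is given in the sources used here. No other RefSeq gene overlapped any of the 9 genes in GRCm38.p6. Promoter sequences are from RefSeq, GRCm38.p6, a build other than that of the files.

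Genes were tested across the whole table with limma 3.58.1 in R 4.3.3 on log2(RPKM + 1), modelling genotype alone, with trended and robust variance moderation, two-sided. The fit was tested on simulated reads with the same preset spread for every gene, not the spread of these libraries. That test does not tell how often real differences would be found here. Depth was 17351907 to 20689481 reads per library, and read numbers cover counting error only. Groups came from the sample titles. For WT library 3, description and file header give different animal numbers. The 6 columns of a table of the whole series were not used.

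Named genes were the 9 genes, Mapk7 and Klf2, up to 3 genes per wider list with the lowest p, and the 3 genes most correlated with F3. 1 gene that this rule names is counted in its list but is not reported here. The genes and lists were chosen with earlier results of these data known. The alternatives tried are given with their values at the end.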

Additional observations from a re-analysis of the deposited data

How the results depend on the processing

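No alternative moved any of the 8 tested genes past an adjusted p of 0.05 (16 alternatives each), and 7 of the 8 kept their direction in all of them. Plat was the exception, at −0.14 to 0.32 with 1 library left out. The lowest adjusted p of F3 was 0.189 and that of Serpine2 0.239, both without WT library 1, and for Serpine2 also without CKO library 1. The number of genes past the threshold over all genes was 1. It was 2 after median centring or quantile normalization, 4 with the filter at RPKM 5, 20 with WT libraries 1 and 2 merged, 5 at an adjusted p threshold of 0.1 and 0 at 0.01. It was 0 with limma without a filter, with a pseudocount of 0.1, with the replicate block, with a macrophage marker covariate and with limma-voom on recovered reads. Unadjusted, 1399, 1059, 1123, 1102 and 1000 genes had p under 0.05 in these fits, in that order. With 1 library left out it was 0 to 24: 24 without WT library 1, 17 without CKO library 1, 1 without CKO library 2, and 0 after leaving out WT library 2, WT library 3 or CKO library 3 (642, 665 and 800 genes at an unadjusted p under 0.05). The median of the wider pathway genes was −0.097 without the filter, where more genes at low values were tested. The replicate numbers were not used as pairs in the main fit, and WT libraries 1 and 2 share an animal label. The deviations of same-numbered libraries correlated at 0.198, 0.0145 and −0.0192. Differently numbered libraries were not compared, so these values cannot show whether a litter or culture day was shared. With 3 libraries per genotype, of which WT library 2 stands apart in its cell cycle genes, the differences seen in F3, Serpine2, Plau, Plaur and Tfpi were not resolved at the adjusted threshold.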
